A study of Drosophila melanogaster with 18 samples.

Results

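The actin isoform genes of Drosophila melanogaster are the 6 genes that encode conventional actin, the protein whose monomers assemble into the filaments of the cell cortex and into the thin filaments of muscle. They were taken from the table of gene counts by symbol and identifier (Act5C, Act42A, Act57B, Act79B, Act87E and Act88F), and all 6 were found among the 17825 genes of the table. The study sequenced polyA RNA of wild-type w1118 flies of 1 isogenic strain in 9 conditions with 2 libraries each, to survey the transcripts of stages and body regions of either sex. The conditions were 18 h embryos, wandering L3 larvae (the last larval instar) and 24 h whole adults, all 3 as whole individuals with no sex given, and the head, the gonads and the body, meaning thorax together with abdomen, of 24 h adult males and females. The ages follow the labels and the study's methods, whereas its results text gives the adults listed beside embryos and larvae as 2 h. All 9 conditions share the w1118 allele of the eye colour gene white, and the labels give no other allele, transgene or treatment. The sources used here do not state how many animals went into a library or whether the 2 libraries of a condition came from separate collections, so that p-values measure the spread between these libraries, which may be technical.

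Flies use their actins by cell type. Act5C and Act42A are the cytoplasmic actins, made in nearly all cells for shape, division and transport. The others are muscle actins. Act57B and Act87E serve larval body wall muscle and also adult muscle, Act79B is the actin of tubular adult muscle such as that of the legs, and Act88F is the actin of the indirect flight muscle of the thorax. The proteins are nearly identical, and the genes differ mainly in where and when they are transcribed.

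In the dm6 assembly, Act5C (FBgn0000042) lies on the plus strand of the X chromosome from 5900861 to 5905399. Act42A (FBgn0000043) lies on the minus strand of 2R from 6013910 to 6015689, and Act57B (FBgn0000044) on the plus strand of 2R from 20944021 to 20946431. Act79B (FBgn0000045) lies on the plus strand of 3L from 21985210 to 21987190. On the plus strand of 3R lie Act87E (FBgn0000046), from 13425983 to 13428375, and Act88F (FBgn0000047), from 15439969 to 15442177. All 6 were annotated with the same coding length of 1131 bases, or 376 codons before the stop. What differed was the untranslated part of the exons, which ranged from 464 bases in Act88F to 1847 bases in Act5C, where it made up 62.0% of the exon length. Act5C had 5 annotated transcripts, Act87E 3, Act79B 2 and the other 3 genes 1 each. Act57B holds the small nucleolar RNA gene snoRNA:660, which had 0 counts in all libraries, and the 5′ end of Act87E is overlapped on the other strand by lncRNA:CR45591, which had 0 to 4 counts per library. How reads that matched more than 1 actin gene were counted is not given in the sources used here, so the division of counts among these paralogs is uncertain to that extent. The treatment of reads from overlapped stretches is not given either. Low counts of the overlapping genes thus do not show whether reads of Act57B or Act87E were lost there.

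The total count per library ranged from 37198249 to 87676051, and the 6 actins together took between 0.273% of it (testis replicate 1) and 3.53% (whole adult replicate 1). Levels are given as CPM, a gene's counts scaled to a common library size, corrected by the trimmed mean of M values (TMM), a factor that brings most genes to the same level between libraries, within the adult parts or within the stages. Differences are log2 fold changes tested with edgeR's quasi-likelihood test, with p-values adjusted by Benjamini-Hochberg over all genes. A gene was called higher or lower where the adjusted p was below 0.05 and the log2 fold change reached 1 in size. The standard error (SE) given was not estimated on its own but back-calculated from the fold change and its test statistic. It can thus grow with the change itself. For Act79B it was 1.02 in ovaries against testes and 1.46 in male bodies against testes. Photoreceptor markers summed to between 29540 and 42789 CPM of total counts in the 4 head libraries and to at most 184 in bodies and gonads. Bodies also held germline transcripts, since the 7 male germline markers summed to between 2216 and 4019 CPM in male bodies against 6713 to 10084 in testes, and the 5 female germline markers to between 1094 and 1700 in female bodies against 1620 to 2461 in ovaries. The list of 5 also summed to 1514 and 1272 CPM in testes and to 730 and 424 in male bodies. It thus did not mark the female germline alone. The testis libraries also held accessory gland transcripts. The 5 accessory gland markers summed to between 3951 and 5373 CPM there, against 1321 to 2359 in male bodies. The part of accessory gland RNA in the levels given for testes was not tested. Of the marker lists, Acp36DE, Acp62F and Cp36 had 0 counts in all libraries. In whole tissue, fewer cells of a type and less RNA per cell cannot be told apart.

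**Figure D1:**
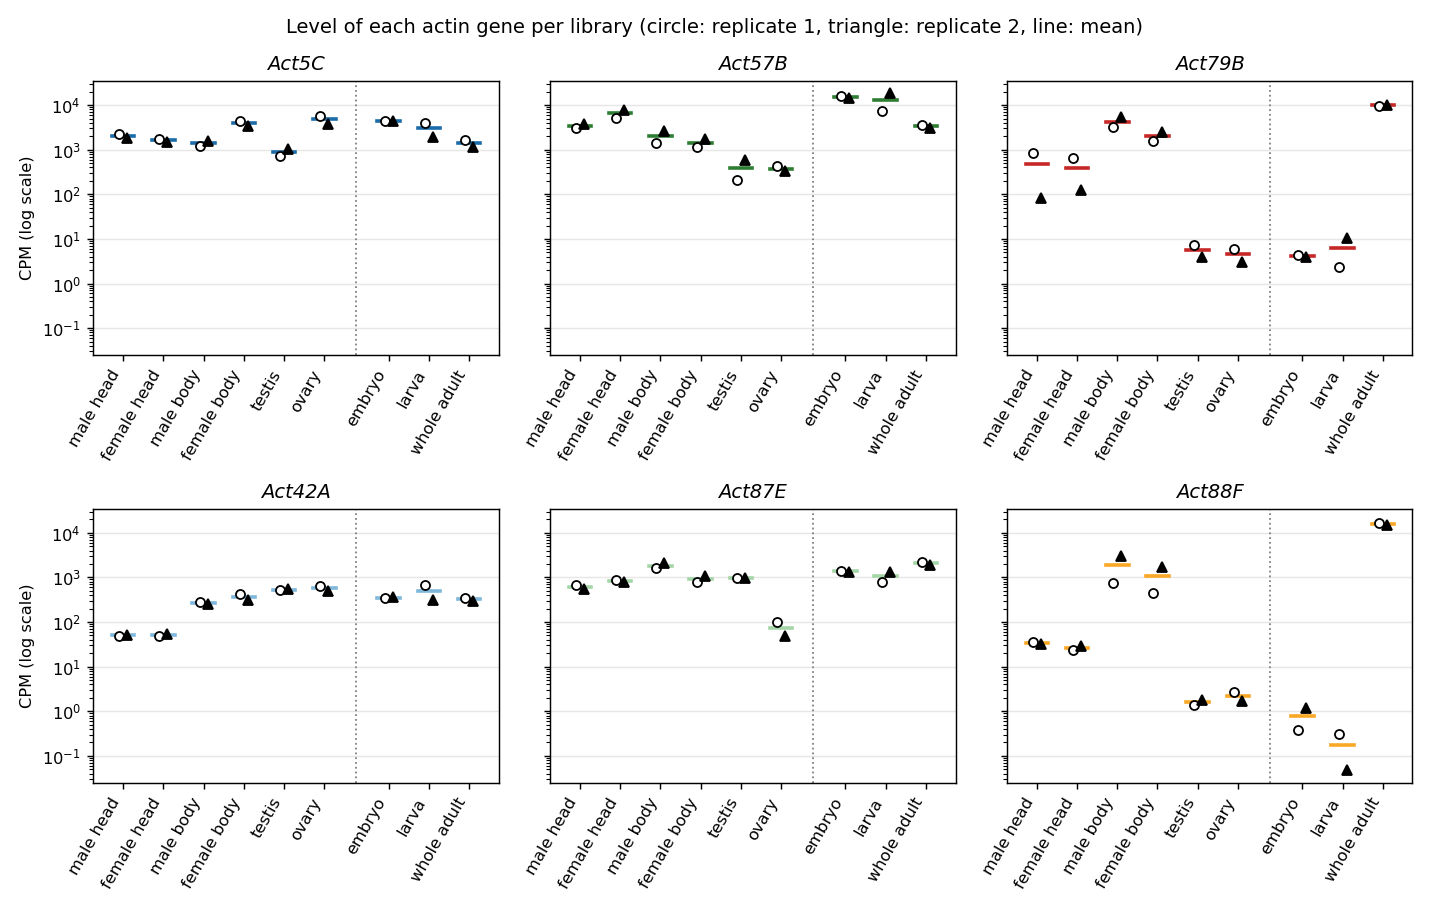
Level of the 6 actin genes in CPM on a log axis across the 9 conditions, with replicate 1 as an open circle, replicate 2 as a filled triangle and the mean as a line; the dotted line separates the adult parts from the stages, which were scaled apart. Act88F spans the widest range, from 0.0475 CPM in larva replicate 2 to 17045 CPM in whole adult replicate 1, and Act5C the narrowest, from 713 to 5851 CPM.

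Act5C, the major cytoplasmic actin, was measured at 5851 and 3849 CPM in ovaries and at 4384 and 3477 CPM in female bodies (replicates 1 and 2). Male heads had 2212 and 1810 CPM, female heads 1782 and 1478, male bodies 1210 and 1588, and testes 713 and 1033. The ranges of ovaries and female bodies overlapped, as did those of female heads and male bodies, while testes lay below the other 5 parts. Ovaries exceeded testes by a log2 fold change of 2.47 (SE 0.35, edgeR adjusted p = 0.000259), and female bodies exceeded male bodies by 1.49 (SE 0.34, edgeR adjusted p = 0.00552). With DESeq2's size factors, where the median gene stood at -0.69 (-0.18 with TMM), the second of these came to 0.99, under the minimum fold. It was 0.49 and 0.88, not called, without male body replicate 1 and without female body replicate 2. Female heads were lower than female bodies by 1.27 on the log2 scale (SE 0.34, edgeR adjusted p = 0.0125) and lower than ovaries by a log2 difference of -1.57 (SE 0.34, edgeR adjusted p = 0.00323). The first of this pair lost its call without female body replicate 1 (-0.87), female body replicate 2 (-1.17) or female head replicate 2 (-1.14), and with DESeq2's size factors (-0.87). Male heads exceeded testes by 1.20 (SE 0.34, edgeR adjusted p = 0.0104), a call that was lost with DESeq2's size factors (0.54), without male head replicate 1 (1.06) and without testis replicate 1 (0.96). Male heads and male bodies differed by 0.52 (SE 0.34, edgeR adjusted p = 0.214), and male bodies and testes by 0.68 (SE 0.34, edgeR adjusted p = 0.161), neither of which was called.

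Act42A, the second cytoplasmic actin, had a different order from Act5C. Its level was 651 and 485 CPM in ovaries, 512 and 555 in testes, 434 and 310 in female bodies and 283 and 255 in male bodies. Female heads had 49.7 and 54.6 CPM and male heads 49.5 and 51.1. The ranges of the gonads overlapped each other, and the 4 head libraries lay below every other library of adult parts. Heads were lower than all other parts of their sex, with log2 fold changes of -2.42 against male bodies (SE 0.25, edgeR adjusted p = 0.000104) and -2.84 against female bodies (SE 0.26, edgeR adjusted p = 2.99e-05). Against the gonads the head values were -3.41 (testes, SE 0.26, edgeR adjusted p = 9.52e-06) and -3.45 (ovaries, SE 0.26, edgeR adjusted p = 5.94e-06). These 4 differences passed under every scaling, filter and left-out library tried. Ovaries and testes differed by 0.09 (SE 0.24, edgeR adjusted p = 0.743). With DESeq2's size factors the value was -0.89, where the median gene stood at -0.95, so that relative to the median gene it was 0.06. Male bodies stood at -0.99 against testes (SE 0.24, edgeR adjusted p = 0.0135), just short of the minimum fold with TMM and past it with DESeq2's size factors (-1.54).

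Act57B, the main actin of larval muscle, had its highest adult levels in heads. Female heads had 5104 and 7943 CPM and male heads 3009 and 3744. Male bodies had 1404 and 2685 CPM, female bodies 1151 and 1742, testes 215 and 584, and ovaries 423 and 330. All 4 head libraries stood above all bodies and gonads, and the bodies above the gonads. The 5 muscle markers (Mhc, Mlc2, wupA, up and Prm) summed to 16506 to 19038 CPM of total counts in female heads and 11827 to 12555 in female bodies. In males they summed to 9329 to 13565 in heads and 24650 to 25328 in bodies. Their part in the level of Act57B was not tested. Female heads were higher than female bodies by 2.17 (SE 0.54, edgeR adjusted p = 0.00860), a call lost without female head replicate 2 (1.82), and male heads stood 0.72 above male bodies (SE 0.52, edgeR adjusted p = 0.265), which was not called. Heads exceeded ovaries by 4.12 (SE 0.59, edgeR adjusted p = 0.000248) and testes by 3.08 (SE 0.56, edgeR adjusted p = 0.000974). Bodies exceeded testes by 2.36 (SE 0.54, edgeR adjusted p = 0.00991) and ovaries by 1.94 (SE 0.54, edgeR adjusted p = 0.0300). The value for testes lost its call without male body replicate 2 (1.48) or testis replicate 1 (1.81), and that for ovaries without female body replicate 2 (1.24), ovary replicate 1 (2.13) or ovary replicate 2 (1.92). Ovaries and testes differed by -0.08 (SE 0.52, edgeR adjusted p = 0.893), and by -1.32, called (edgeR adjusted p = 0.0403), when at least 10 counts were required in every library.

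Act87E, the other larval and adult muscle actin, had the highest level of the 4 muscle actins in testes. Testes had 967 and 969 CPM, next to 807 and 1058 in female bodies and 880 and 803 in female heads. Male bodies had the highest level, with 1613 and 2068 CPM, male heads had 662 and 550, and ovaries had 99.5 and 47.8. The ranges of testes, female bodies and female heads overlapped, and the ovary libraries lay below the other 10. Ovaries were lower than testes by a log2 difference of -3.72 (SE 0.39, edgeR adjusted p = 4.91e-05), than female bodies, where bodies against ovaries gave 3.66 (SE 0.39, edgeR adjusted p = 0.000190), and than female heads, where heads against ovaries gave 3.51 (SE 0.39, edgeR adjusted p = 4.72e-05). Male bodies against testes gave 0.93 (SE 0.35, edgeR adjusted p = 0.0775) and male heads against testes -0.68 (SE 0.35, edgeR adjusted p = 0.109), neither called. With DESeq2's size factors the head value was called at -1.34. Male heads were lower than male bodies (log2 fold change -1.60, SE 0.36, edgeR adjusted p = 0.00442), and -2.31 was obtained without male body replicate 1. The 5 muscle markers (Mhc, Mlc2, wupA, up and Prm) summed to 789 and 1165 CPM of total counts in testes and to 739 and 343 in ovaries, against 24650 to 25328 in male bodies, and their part in the level of Act87E was not tested.

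Act79B, the actin of tubular adult muscle, stood highest in bodies. Male bodies had 3162 and 5318 CPM and female bodies 1557 and 2545, while testes had 7.19 and 3.91 and ovaries 6.02 and 3.06. Heads lay between them, with 852 and 82.3 CPM in males and 660 and 123 in females. The bodies of the sexes did not overlap, and the gonads lay below all other parts. Bodies exceeded testes by 9.58 (SE 1.46, edgeR adjusted p = 0.00112) and ovaries by 8.82 (SE 1.42, edgeR adjusted p = 0.00154). Heads exceeded testes by 6.40 (SE 1.28, edgeR adjusted p = 0.00165) and ovaries by 6.43 (SE 1.28, edgeR adjusted p = 0.00191), and these became 3.90 and 4.77, still called, without the head libraries numbered 1. Male heads were lower than male bodies by a log2 difference of -3.18 (SE 1.10, edgeR adjusted p = 0.0337), which was lost without male body replicate 2 (-2.50) or male head replicate 2 (-2.03) and was -5.69 without male head replicate 1. Female heads against female bodies gave -2.39 (SE 1.06, edgeR adjusted p = 0.0935), not called, and -2.88 with the replicate number as a block (edgeR adjusted p = 0.0325). The level in testes was 0.214% and 0.0851% of that of the male body of the same number, and that in ovaries 0.335% and 0.115% of that of the female body. The 7 male germline markers stood in heads of either sex at 0.135% to 0.220% of their level in testes of the same number. In female bodies they stood at 0.966% and 1.13%, and in ovaries at 1.51% and 2.25%. Of these markers 5 were called lower in ovaries than in testes, so the list may not mark the male germline alone. The part of RNA carried between samples was not tested.

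Act88F, the actin of indirect flight muscle, was found almost wholly in bodies among the adult parts. Male bodies had 743 and 3045 CPM and female bodies 437 and 1682. Male heads had 35.7 and 32.4 CPM, female heads 24.0 and 29.5, ovaries 2.64 and 1.71, and testes 1.38 and 1.78. Bodies lay above heads, and heads above gonads, with no overlap, but the 2 body libraries of a sex differed by 4.10-fold in males and 3.85-fold in females, replicate 2 being the higher in both. Heads were lower than bodies by log2 differences of -5.80 in males (SE 0.85, edgeR adjusted p = 0.000577) and -5.31 in females (SE 0.83, edgeR adjusted p = 0.000698). These became -4.15 and -3.77 without body replicate 2 of that sex. Bodies exceeded testes by 10.23 (SE 1.03, edgeR adjusted p = 0.000151) and ovaries by 8.93 (SE 0.98, edgeR adjusted p = 0.000216), and heads exceeded testes by 4.43 (SE 0.81, edgeR adjusted p = 0.000985) and ovaries by 3.62 (SE 0.78, edgeR adjusted p = 0.00291). The head level was 0.926% to 3.62% of that of the male body and 1.64% to 4.95% of that of the female body of the same number.

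**Figure D2:**
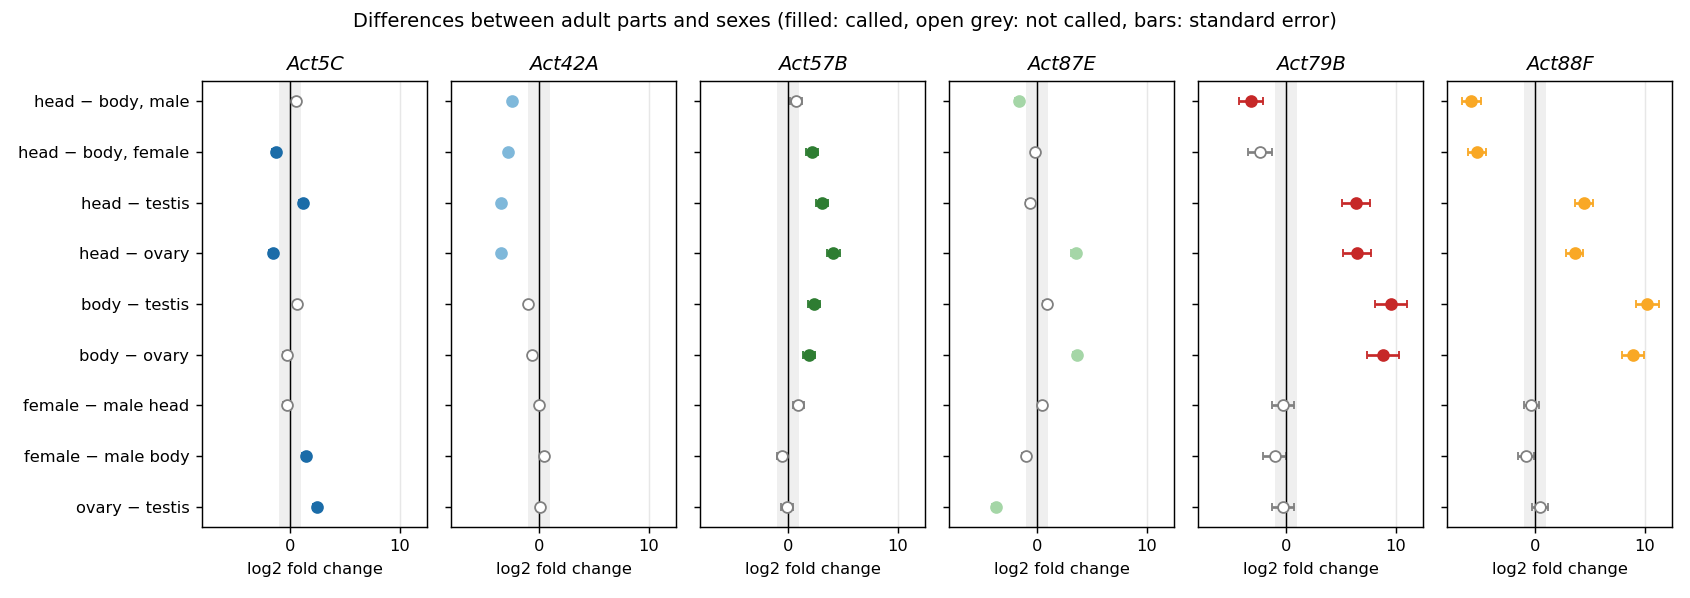
Log2 fold change (horizontal axis) of each actin gene in the 9 comparisons between adult parts and sexes, named at the left. Bars are 1 SE, back-calculated from the fold change and its test statistic. Filled points were called and open grey points were not, and the shaded band marks changes under 1. Act42A lies left of 0 in all 4 comparisons of heads with bodies or gonads, Act88F lies at -5.80 and -5.31 in heads against bodies and between 3.62 and 10.23 against gonads, and all points of female against male heads are open.

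Counted by comparison, 4 of the 6 actins were lower in male heads than in male bodies, where 51.6% of all 12597 tested genes were called (20.9% higher and 30.6% lower), and 0 were higher. In female heads against female bodies 3 were lower and 1 higher, with 44.8% of all genes called (19.2% higher and 25.6% lower). Male heads against testes gave 4 higher and 1 lower (68.8% of all genes called, 37.0% higher and 31.8% lower), and female heads against ovaries 4 higher and 2 lower, all 6 of the genes (56.1%, with 27.4% higher and 28.6% lower). Bodies against testes gave 3 higher (26.9% of all genes, 24.0% higher and 2.89% lower) and bodies against ovaries 4 higher (19.7%, with 19.6% higher and 0.127% lower), with 0 lower in either. The comparisons of each sex share libraries, so that their counts are not separate evidence. The split of all calls moved with the scaling. The share of calls that were higher went from 53.8% to 41.8% with DESeq2's size factors for male heads against testes, from 89.2% to 51.9% for male bodies against testes and from 42.8% to 55.0% for female heads against female bodies. The median gene moved with it, by TMM and DESeq2's size factors respectively, from 0.28 to -0.37, from 0 to -0.55 and from -0.36 to 0 on the log2 scale. A scaling moves all genes of a library alike, so that a log2 fold change relative to the median gene hardly changes by construction. The 84 such values of actins, 6 in each of 14 comparisons, moved by at most 0.048 among TMM, DESeq2's size factors and upper-quartile scaling. This does not show which scaling is right, and calls lost or gained with the scaling went with a shift of all genes.

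Between the sexes, the actins of heads did not pass the test and those of gonads differed in 2 genes. Female against male heads gave log2 fold changes from -0.35 (Act88F, SE 0.70) to 0.95 (Act57B, SE 0.52), with 0 of 6 called by edgeR or DESeq2 where 0.0318% of all genes were called. All 6 had an edgeR adjusted p of 1, and 0 had an unadjusted p under 0.05. Female against male bodies gave 1 of 6 called, Act5C, beside 52.1% of all genes (24.4% higher and 27.7% lower). Act87E, lower in both female body libraries than in both male ones, reached -0.98 (SE 0.35, edgeR adjusted p = 0.0386), just under the minimum fold, and -1.48, called, with DESeq2's size factors. Act79B stood at -1.05 (SE 1.02, edgeR adjusted p = 0.400) and Act88F at -0.84 (SE 0.70, edgeR adjusted p = 0.326). Ovaries against testes gave 2 of 6 called, Act5C higher and Act87E lower, beside 73.6% of all genes (35.9% higher and 37.6% lower). The share of calls that were higher went from 46.8% to 29.4% for bodies and from 48.9% to 32.2% for gonads with DESeq2's size factors, and the median gene stood at -0.69 in bodies and -0.95 in gonads with them, against -0.18 and 0 with TMM. Both called gonad differences were called under every scaling tried, Act5C at 1.49 and Act87E at -4.71 with DESeq2's size factors.

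The difference between parts was itself compared between the sexes. For heads against bodies, 2 of 6 actins passed, beside 34.8% of all genes. Act5C was lower in heads than in bodies in females but not in males, with a difference of the 2 log2 fold changes of -1.79 (SE 0.48, edgeR adjusted p = 0.0203). Act87E was lower in heads than in bodies in males but not called in females, with a difference of 1.45 (SE 0.50, edgeR adjusted p = 0.0481). For bodies against gonads, 1 of 6 passed, beside 13.7% of all genes, Act87E at 2.73 (SE 0.50, edgeR adjusted p = 0.00984). With DESeq2's size factors the share of all calls that were higher went from 45.1% to 65.5% for the first of these and from 42.6% to 67.3% for the second. The calls for heads against bodies were lost with most libraries left out, in 5 of 8 cases for Act5C (values -0.75 to -1.93) and in 6 of 8 for Act87E (values of at most 1.60). For bodies against gonads the call was lost in 1 of 8, without male body replicate 1 (2.08). With at least 10 counts in every library the Act5C value was -1.19, not called. Female body libraries also carried the 2 measured follicle cell markers, Vm26Ab and Vml, with the list of 3 summing to between 2026 and 4856 CPM of total counts, and their part in the level of Act5C was not tested.

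Levels of different genes were compared per kilobase of gene, and not all orders of the means held in each library. In heads of both sexes the mean order was Act57B, Act5C, Act87E, Act79B, Act42A and Act88F, but in male head replicate 1 Act79B (430 CPM per kilobase of span) stood above Act87E (277), and in female head replicate 2 Act87E (335) stood above Act5C (326). In male bodies Act79B led in both libraries. Act88F was second in replicate 2, with 1378 CPM per kilobase, but lay below Act87E and Act57B in replicate 1, with 337, and Act57B came before it in the mean when scaled by total counts. In female bodies Act5C led in replicate 1 and Act79B in replicate 2, and their order in the mean depended on whether span or exon length was used. In ovaries Act5C led with 1068 CPM per kilobase of span and Act42A was second, and in testes Act87E led and Act42A was second, above Act5C, in both libraries of each. Embryos had the order Act57B, Act5C, Act87E, Act42A, Act79B and Act88F in both libraries. Larvae had it in the mean, with Act42A above Act87E in replicate 1 and Act87E above Act5C in replicate 2. Both whole adult libraries had Act88F first, with a mean of 7289 CPM per kilobase, then Act79B, Act57B, Act87E, Act5C and Act42A.

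**Figure D3:**
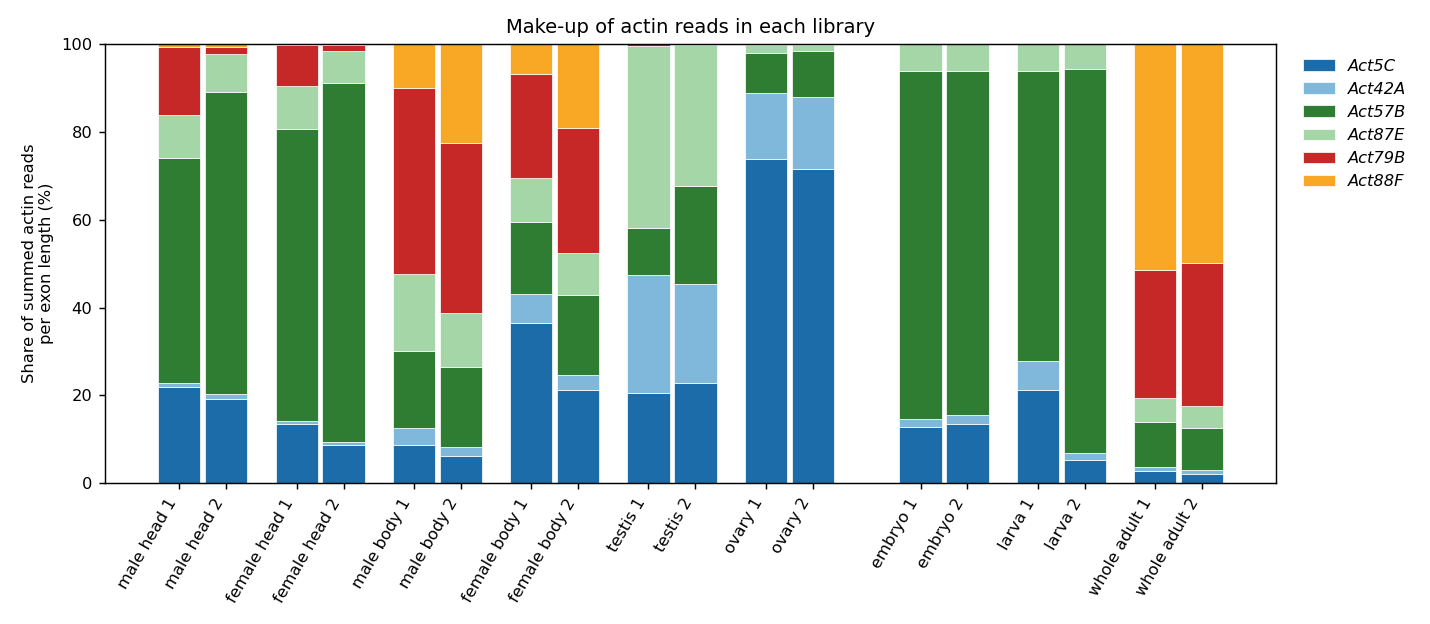
Share of each actin gene in the summed actin reads per exon length, in percent (vertical axis), for each of the 18 libraries. Cytoplasmic Act5C and Act42A fill 88.7% and 87.9% of the ovary bars and 3.77% and 3.03% of the whole adult bars, and Act57B fills 78.2% and 79.3% of the embryo bars.

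As a share of all actin reads per exon length, the cytoplasmic pair made up 88.7% and 87.9% in ovaries, 47.4% and 45.3% in testes, 43.0% and 24.6% in female bodies and 12.6% and 8.14% in male bodies. It made up 22.7% and 20.2% in male heads and 14.1% and 9.40% in female heads. Thus ovaries stood apart from all other conditions, and the 2 female bodies differed more from each other than the male ones. In testes Act87E took 41.5% and 32.1%. Act57B took between 51.3% and 81.8% in the 4 head libraries. Counting error was small beside these differences, since the 95% Wilson interval of a share of actin counts reached at most 0.292 percentage points from it, and it covers counting error only.

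Among the stages, Act5C and Act57B had their highest mean levels in embryos and Act87E, Act79B and Act88F in whole adults. Act5C was measured at 4460 and 4317 CPM in embryos, 4058 and 1931 in larvae and 1693 and 1169 in whole adults. Act42A had 345 and 362 CPM in embryos, 691 and 311 in larvae and 349 and 301 in adults, with overlapping ranges. Whole adults were lower than embryos in Act5C by a log2 difference of -1.62 (SE 0.43, edgeR adjusted p = 0.0152), a call lost without either embryo library (-1.60 and -1.65) and without adult replicate 2 (-1.38), and adults against larvae gave -1.07 (SE 0.42, edgeR adjusted p = 0.0699), not called. Act57B had 15949 and 14459 CPM in embryos, 7293 and 18245 in larvae and 3636 and 3144 in adults. It was lower in adults than in embryos (-2.16, SE 0.51, edgeR adjusted p = 0.00945) and than in larvae (-1.91, SE 0.50, edgeR adjusted p = 0.0183). The first was lost without embryo replicate 1 (-2.10) or 2 (-2.25), and the second without adult replicate 1 (-1.84) or 2 (-1.81), and it was -1.11 without larva replicate 2. Act87E had 1397 and 1328 CPM in embryos, 776 and 1352 in larvae and 2254 and 1917 in adults, and its 0.97 in adults against larvae (SE 0.33, edgeR adjusted p = 0.0430) was just under the minimum fold and called with DESeq2's size factors (1.18).

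The adult actins differed between stages by far more. Act79B had 380 and 357 counts in embryos (4.27 and 3.87 CPM), 108 and 440 in larvae (2.32 and 10.5 CPM) and 473045 and 508681 in whole adults (9791 and 10085 CPM). Act88F had 34 and 108 counts in embryos, 14 and 2 in larvae and 823504 and 764652 in whole adults (17045 and 15159 CPM). Both genes were thus low in embryos and larvae, and Act88F was the most abundant actin of whole adults. Summed over libraries, whole adults exceeded larvae in Act88F by 103259-fold (exact 95% counting interval 63585 to 180653) and embryos by 21002-fold (17818 to 24934). For Act79B the ratios were 1864 (1714 to 2030) over larvae and 2501 (2327 to 2692) over embryos. These intervals cover counting error only. With 1 library left out in turn the fitted log2 fold changes over larvae ranged from 15.69 to 18.31 for Act88F and from 9.89 to 12.06 for Act79B, and over embryos from 13.74 to 15.34 and from 11.17 to 11.32. In the fit across genes, Act88F was higher in adults than in larvae and embryos with edgeR adjusted p = 0.000139 and 5.64e-05, and Act79B with edgeR adjusted p = 0.000281 and 0.000104. Larvae against embryos gave 0 of 6 called by edgeR and 1 with an unadjusted p under 0.05, with 51.0% of all genes called (31.7% higher and 19.3% lower), although the 16 counts of Act88F in larvae against 142 in embryos gave a log2 fold change of -2.11 (SE 0.83, edgeR adjusted p = 0.0600) that DESeq2 called. Whole adults against larvae gave 2 of 6 higher and 1 lower (40.9% of all genes called, 23.1% higher and 17.8% lower), and whole adults against embryos 2 higher and 2 lower (48.8%, with 29.7% higher and 19.0% lower). With DESeq2's size factors the share of higher calls in adults against larvae went from 56.5% to 66.7% and the median gene from -0.02 to 0.18.

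Larva replicate 1 and larva replicate 2 stood apart in these genes. Replicate 1 had more Act5C and Act42A (2.23-fold), and replicate 2 more Act57B, Act87E (1.74-fold) and Act79B (4.50-fold). Act88F had few counts in either, with 14 in replicate 1 and 2 in replicate 2. In these 2 libraries the 5 muscle markers summed to 13011 and 30867 CPM of total counts, and their part in the actin levels was not tested. Without larva replicate 1, 3 of 6 actins were called in larvae against embryos. The cytoplasmic share of actin reads per exon length was 27.9% in the first and 6.93% in the second, against 14.7% and 15.6% in embryos.

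Whole adults and adult parts were prepared with different reads, so that their levels are set side by side only, in CPM of total counts. The age of the whole adults differs within the study's text, so that a shared age with the parts is not certain. Follicle cell markers summed to 0.315 and 0.438 CPM in whole adults, whose sex is not given, against 2026 to 4856 in female bodies. Act88F had 16746 and 17308 in whole adults and at most 3304 in any part. Act79B had 9942 and 11140 in whole adults and at most 5770 in a part. Act87E, with 2288 and 2117, stood on either side of its highest part library (2244), and Act5C, Act42A and Act57B lay below their highest part. The whole adult libraries also had the highest muscle marker sums, 59948 and 60938 CPM, against 11827 to 25328 in bodies. The gene fln, which encodes the thick filament protein flightin of flight muscle, had 190 and 83.9 CPM in whole adults and at most 2.43 in bodies, and TpnC4, a troponin C gene of flight muscle, was listed at 0 counts in all libraries.

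**Figure D4:**
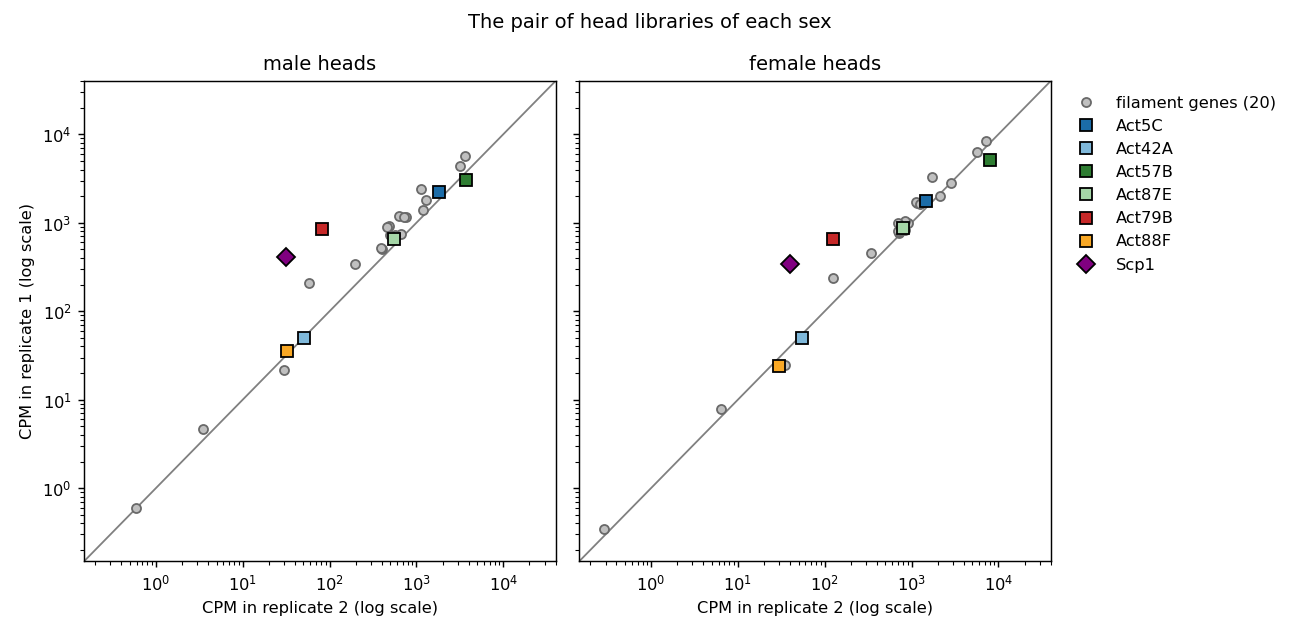
CPM of replicate 1 (vertical) against replicate 2 (horizontal) of the male and female heads, on log axes, for the 6 actins, Scp1 and the 20 tested filament genes, with the line of equality. Act79B and Scp1 lie above the line in both sexes, at 10.4 and 12.9 times in males and 5.35 and 8.45 times in females, while the other actins lie near it.

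Within the heads, Act79B differed between the 2 libraries of each sex. Replicate 1 had 10.4 times the level of replicate 2 in males and 5.35 times in females, whereas the other 5 actins differed by at most 1.56 times. Of the 12597 tested genes, only Act79B and Scp1, which encodes a sarcoplasmic calcium-binding protein, stood at least 4-fold higher in replicate 1 in both sexes with at least 100 CPM there, a search made after the values were seen. Scp1 had 411 and 31.9 CPM in male heads and 339 and 40.1 in female heads, and 2947 and 1261 in male bodies. The filament genes moved less, with 18 of 20 higher in replicate 1 of male heads (median log2 difference 0.52) and 16 of 20 in female heads (0.21). Act88F was about equal in the libraries of each sex. Without female head replicate 1, Act79B in female heads against female bodies stood at -4.05, not called (edgeR adjusted p = 0.0510). Leaving out male head replicate 1 as well, a choice made after the levels of Act79B were seen, gave the same value, which is a description and not a test.

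Genes of the muscle filaments other than actin were examined beside them. Of a list of 22 (tropomyosins, troponins, myosin chains and Z-disc proteins), 20 were tested, since TpnC4 and Mf had 0 counts. All 20 were higher in male bodies than in testes (median log2 fold change 4.18, against 0 over all genes), 19 were higher in female bodies than in ovaries (median 3.76, all genes -0.26), 18 in male heads than in testes with 1 lower, and 17 in female heads than in ovaries. Among all genes, 24.0%, 19.6%, 37.0% and 27.4% were higher in these comparisons. Heads and bodies differed in fewer of them, with 1 higher and 3 lower in males (beside 20.9% and 30.6% of all genes) and 2 higher and 2 lower in females (beside 19.2% and 25.6%), and with 5 lower in males under the replicate block. The called ones were mainly troponin C genes, the calcium sensors of the thin filament. TpnC47D was lower in heads (-5.32 in males, SE 0.56, edgeR adjusted p = 0.000103, and -3.95 in females, SE 0.52, edgeR adjusted p = 0.000242), as was TpnC73F (-2.50 and -2.47), and TpnC25D was higher in heads (3.03 in males, SE 0.42, edgeR adjusted p = 0.000439, and 4.92 in females, SE 0.46, edgeR adjusted p = 3.58e-05). In CPM of total counts, TpnC25D had 460 and 384 in male heads against 74.3 and 54.5 in male bodies. In whole adults against larvae, 10 were higher and 2 lower (median 1.25, all genes -0.02), led by fln and TpnC41C, the latter at 9.62 (SE 0.32, edgeR adjusted p = 2.72e-05), and in adults against embryos 8 were higher and 2 lower, 5 higher under the replicate block. Larvae against embryos gave 3 lower. Among all genes, 23.1% were higher and 17.8% lower in adults against larvae, and 29.7% and 19.0% in adults against embryos. In larvae against embryos the shares were 31.7% and 19.3%. Between the sexes the list depended on the scaling, with 1 of 20 lower in female than in male bodies by TMM and 12 with DESeq2's size factors, and with 3 higher and 2 lower in ovaries than in testes by TMM and 2 higher and 12 lower with DESeq2's size factors. By TMM, 27.7% of all genes were lower in female than in male bodies, and 35.9% were higher and 37.6% lower in ovaries than in testes.

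A list of 25 regulators of actin assembly held, among others, profilin, cofilin, capping protein, the Arp2/3 complex and bundling proteins. In ovaries against testes 18 were higher and 4 lower (median 1.83, all genes 0), and in female against male bodies 14 higher and 2 lower (median 1.10, all genes -0.18). With DESeq2's size factors these became 10 higher and 4 lower (median 0.84) and 8 higher and 3 lower (median 0.59). By TMM, 35.9% of all genes were higher and 37.6% lower in ovaries against testes, and 24.4% and 27.7% in female against male bodies. The bundling protein gene sn (fascin) was higher by 3.32 in ovaries (SE 0.37, edgeR adjusted p = 6.34e-05) and by 3.37 in female bodies (SE 0.37, edgeR adjusted p = 0.000190), and the nucleator gene capu was lower by log2 differences of -3.79 (SE 0.34, edgeR adjusted p = 2.45e-05) and -2.77 (SE 0.33, edgeR adjusted p = 0.000274). Female heads had 14 of 25 lower than ovaries and 12 lower than bodies, with 1 and 2 higher, or 11 and 7 lower with DESeq2's size factors. The shares of all genes by TMM were 28.6% and 25.6% lower and 27.4% and 19.2% higher. In male heads the list was divided, with 3 higher and 3 lower against bodies and 7 higher and 5 lower against testes, the latter turning to 4 higher and 7 lower with DESeq2's size factors. By TMM, 20.9% of all genes were higher and 30.6% lower against bodies, and 37.0% and 31.8% against testes. The list was thus called less often than all genes in both. The villin-like gene qua was lower in heads in both sexes, at -6.14 against male bodies (SE 0.40, edgeR adjusted p = 1.73e-05) and -4.98 against female bodies (SE 0.38, edgeR adjusted p = 1.30e-05). Male bodies had 4 higher and 2 lower against testes (0 and 7 with DESeq2's size factors), and female bodies 1 higher against ovaries. Among all genes, 24.0% were higher and 2.89% lower in the first by TMM, and 19.6% were higher in the second. In the stages, 6 were higher and 1 lower in larvae than in embryos, and 15 were lower and 3 higher in adults than in larvae (median -1.06), or 9 and 3 with DESeq2's size factors, while adults against embryos gave 3 higher and 1 lower. The shares of all genes higher and lower by TMM were 31.7% and 19.3%, 23.1% and 17.8%, and 29.7% and 19.0% in these comparisons.

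The 9 actin-related proteins, which share the actin fold but serve nucleation, dynactin or chromatin complexes, were called in part. Among them, Arp2 and Arp3 were also in the list of regulators of actin assembly, so that the lists are not separate sets. Ovaries had 7 higher and 1 lower than testes (4 and 2 with DESeq2's size factors), beside 35.9% and 37.6% of all genes, and female bodies 5 higher and 1 lower than male bodies, beside 24.4% and 27.7%. The exception in both was Arp53D, with 7049 and 7057 counts in testes, 3327 and 2644 in male bodies, 101 and 24 in ovaries and 52 and 0 in female bodies. Embryos had 0 counts of Arp53D in both libraries, whereas larvae had 1183 and 769 and whole adults 1243 and 1415. Male heads, with 11 and 0 counts, were lower than testes (edgeR adjusted p = 0.00180). Female heads had 6 of the 9 lower than ovaries, 4 lower than bodies and 0 higher, beside 28.6% and 25.6% of all genes that were lower.

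Over the 12 libraries of adult parts, Act79B and Act88F followed each other most closely among the actins (Pearson r = 0.94 of log2 CPM), and Act42A and Act57B ran opposite (r = -0.87), while the other 13 pairs lay between -0.62 and 0.67. These are descriptions over 12 libraries that share 6 tissue types, with no test. Of all other tested genes, those most like Act5C were Rab6 (0.99), Rab11 (0.99) and mRpL1 (0.98). Those most like Act42A were Elp4, Plap and Rpn13 (each 0.99). Act57B was followed by vri, Cyp6a20 and CG17974 (each 0.98), and Act87E by CG8519 (0.99), Smyd4-3 and CG8051 (each 0.98). Act79B was followed by CG3987 (0.98), Scp1 (0.97) and Cpr92F (0.96), and Act88F by Cpr92F and Acsx4 (each 0.98) and zye (0.97).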

How the data were processed

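PolyA RNA of 18 libraries in 9 conditions was analysed from 1 table of raw counts per gene, which the authors deposited without normalization. Per the labels and the study's methods, reads of adult parts (150 bp, stranded, paired) and of stages (100 bp, unstranded, paired) were trimmed with cutadapt 1.15 and mapped to dmel release 6.15 (dm6) with TopHat2 2.1.1, allowing 2 mismatches. The counter, and its treatment of strand and of reads that matched several genes, are not given in the sources used here. Symbols came from an Ensembl annotation, for 17741 identifiers directly and for a further 49 by position.

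The 12 libraries of adult parts (12597 genes kept) and the 6 of stages (12335 genes) were fitted apart with edgeR 4.0.16 in R 4.3.3 (TMM, filterByExpr with a minimum count of 10, glmQLFit, glmQLFTest). DESeq2 1.42.0, other scalings, filters and left-out libraries were alternatives. The script was tested on simulated counts with a log2 change of 2 in 198 genes. In male heads against male bodies 75 of these (37.9%) were called, besides 3 unchanged genes. In larvae against embryos 143 of 198 (72.2%) were called, besides 18 unchanged genes. A simulated gene that was not called could thus still differ by that much. Far fewer genes were changed there than were called in the data, which shifts the adjusted p. In the data, 51.6% of all genes were called in male heads against male bodies and 51.0% in larvae against embryos. How often such a change in an actin gene would be missed was not measured. In the adult parts, deviations of same-numbered libraries correlated in all 15 pairs of conditions (0.279 to 0.672), so that numbers were taken to pair libraries there. In the stages the correlations were -0.0468 to 0.123, and numbers were not taken to pair libraries. The SEs and adjusted p-values given are nonetheless from fits without this pairing, except where the replicate block is named. The fit with the replicate number as a block was an alternative. The 6 genes were named in every comparison. Further genes named were the 3 most correlated with each, and up to 3 with the largest called change from a list, besides those described by counts. The members and lists were chosen with earlier results of these data known.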

Additional observations from a re-analysis of the deposited data

Results flagged for a closer look

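In 3 cases a difference between parts was itself different between the sexes by the test of that difference. Act5C in heads against bodies gave a log2 fold change of -1.27 in females and 0.52 in males, a difference of -1.79 (SE 0.48, edgeR adjusted p = 0.0203). Act87E in heads against bodies gave -0.15 in females and -1.60 in males, a difference of 1.45 (SE 0.50, edgeR adjusted p = 0.0481). Act87E in bodies against gonads gave 3.66 in females and 0.93 in males, a difference of 2.73 (SE 0.50, edgeR adjusted p = 0.00984). Each sex contributes 2 libraries a part. The first 2 of these share the body libraries with the third, and their calls were lost in 5, 6 and 1 of the 8 cases with 1 library left out.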

How the results depend on the processing

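Of the counts of actins called, the following moved by over 1.5 times. In female against male bodies the count of 1 became 2 with upper-quartile scaling and 2 with no minimum fold change. In ovaries against testes 2 became 4 with at least 10 counts in every library. In larvae against embryos 0 became 1 with DESeq2's size factors and 1 with DESeq2's test. In the head against body difference between the sexes 2 became 0 without both head libraries numbered 1, an alternative chosen after seeing the data. With each library left out in turn, the counts ranged from 2 to 4 in female heads against bodies, from 1 to 3 in female against male bodies, from 0 to 3 in larvae against embryos, from 2 to 6 in whole adults against larvae and from 2 to 4 in whole adults against embryos. They ranged from 0 to 2 and from 0 to 1 in the head against body and body against gonad differences between the sexes.

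Signs turned only in differences that were not called in the main fit. Act87E in female heads against bodies was 0.24 with DESeq2's size factors and with its test, 0.028 without a filter, 0.17 with at least 10 counts in every library and 0.053 with only the groups compared. Act79B in female against male heads was 0.59 without the head libraries numbered 1. Act42A in female against male bodies was -0.044 with DESeq2's size factors and test and -0.14 with the stricter filter. Act42A in ovaries against testes was -0.89 with DESeq2's size factors and test, -0.52 with upper-quartile scaling, and -0.11 without a filter and with only the groups compared. With the stricter filter it was -1.15, past the minimum fold. Act88F in ovaries against testes was -0.52 with DESeq2's size factors and test, -0.15 with upper-quartile scaling and -0.78 with the stricter filter. The turns with scaling went with a shift of all genes, since a scaling moves all genes of a library alike. Relative to the median gene, Act42A was 0.64 to 0.65 in the bodies and 0.06 to 0.09 in the gonads under all 3 scalings, Act88F in the gonads 0.43 to 0.46 and Act87E in female heads against bodies 0.21 to 0.24.

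With libraries left out in turn, in male heads against bodies Act5C ranged from -0.20 to 1.03 and Act57B from -0.21 to 1.57. In female heads against bodies Act87E ranged from -0.21 to 0.32, and in female bodies against ovaries Act5C from -0.52 to 0.030. In female against male heads Act42A ranged from -0.015 to 0.14 and Act79B from -1.92 to 2.25. In female against male bodies Act42A ranged from -0.27 to 0.54, Act57B from -1.73 to 0.17 and Act88F from -2.88 to 0.62. In ovaries against testes Act42A ranged from -0.62 to 0.037, Act57B from -0.84 to 0.62, Act79B from -0.89 to 0.22 and Act88F from -0.17 to 0.45. In larvae against embryos Act42A ranged from -0.19 to 0.97, Act57B from -1.06 to 0.26 and Act79B from -0.81 to 1.36. In whole adults against larvae Act42A ranged from -1.09 to 0.066. A group left with 1 library was assumed to vary like the others. These fits had no block and broke a same-numbered pair. Within both pairs of bodies, females were lower than males in Act57B (1151 against 1404 and 1742 against 2685 CPM) and Act88F (437 against 743 and 1682 against 3045).

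The replicate block changed 1 member's call, Act79B in female heads against bodies (-2.88), turned Act57B in ovaries against testes to 0.094, and changed no other actin call. In the stages, where the numbers did not pair the libraries, the block changed 0 calls. With 2 libraries a condition, and with reads of near-identical genes counted in a way not given, small differences could not be resolved. Causes of these changes were not tested.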
